A study of Mus musculus with 23 samples.

Results

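The 9 genes described here encode the transcription factors Nkx2-5, Gata4, Gata6, Tbx5, Tbx20, Mef2a, Mef2c, Mef2d and Hand2. They were chosen by symbol, as the core factors of heart muscle together with Gata6, and all 9 were found among the 23284 genes of the deposited table. RNA-seq libraries were made from 16 individual mesenchymal stem cells of mouse bone marrow (mMSC1 to mMSC16) and 5 individual HL-1 cardiomyocytes (HL1cm1 to HL1cm5). For each cell type 1 population control of bulk RNA (mMSC-PC and HL1cm-PC) was run alongside the single cells. The study used HL1cm as the non-MSC control, so the comparison asks which heart factors separate a cardiomyocyte line from mMSCs and which of them mMSCs also carry. The mMSCs were purchased, came from 3-month-old male C57BL mice and were used at passages 6 to 11 in alpha-MEM with 10% serum. HL-1 is a line of mouse atrial cardiomyocytes derived from a tumour, used here at passages 70 to 85. The labels give the strain of both as C57BL/6J and name no genetic change or treatment, and HL1cm were stained with a green dye before capture. The study cites a separate culture protocol for each cell type. Cell type, passage, culture and stain cannot be told apart in this design.

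The heart muscle programme is run by a small network of DNA-binding proteins that act together. Gata4 and Gata6 are zinc finger proteins that bind GATA sites, Nkx2-5 is a homeodomain protein, Tbx5 and Tbx20 belong to the T-box family, the Mef2 proteins bind A/T-rich sites through a MADS domain, and Hand2 is a basic helix-loop-helix protein. They bind one another and switch on genes of the sarcomere and of calcium handling. Gata6 is also active outside the heart, in the smooth muscle of blood vessels and in endoderm, and the study's own gene list places it with vascular smooth muscle. Mef2a and Mef2d are present in many tissues, while Mef2c is best known from heart, skeletal muscle and brain.

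The cells carried the markers of their labels. Of 10 cardiomyocyte markers, 9 were above 0 in every HL1cm and all 10 in some, and their summed level was 30942 to 57599 FPKM there against 0 to 65.4 FPKM in single mMSCs (FPKM is a fragment count scaled to transcript length and library size). Of 10 MSC markers, 9 were above 0 in mMSCs, with Thy1 listed at 0 in every library, and Ly6a, Cd9, Col1a2 and Col3a1 were listed at 0 in all HL1cm. The other 5 MSC markers were above 0 in some HL1cm, 2 of them in all, and the summed level was 685 to 1120 FPKM there against 4144 to 10767 FPKM in mMSCs. Of 6 macrophage markers, 3 were above 0 in some mMSCs, with a summed level of 0 to 48.1 FPKM there, 21 FPKM in mMSC-PC and 0 to 1.1 FPKM in HL1cm, while Ptprc, Emr1 and Lyz2 were listed at 0. Of 4 endothelial markers, 1 was above 0 in some mMSCs and 2 in some HL1cm, with sums of up to 10.8 and 13.8 FPKM, while Cdh5 and Tek were listed at 0. The expression table holds no read counts, and the aligned read pairs that the study lists for each cell were not used here. As a guide to depth, the 5th percentile of FPKM times transcript length, over genes with a single transcript of at least 2000 bases, was taken as the low-end value of a library, near the level that a few fragments give. It was 2.70 to 12.5 FPKM kilobases in mMSCs and 2.97 to 5.18 in HL1cm, and was highest, so the inferred depth lowest, in mMSC9 (12.5), mMSC15 (9.49), mMSC1 (7.07) and mMSC8 (6.32). A value of 0 need not mean absence, since Canx, a gene used by all cells, was listed at 0 in mMSC12. Whether a transcript was lost or an estimate failed there is not known, so genes are described as above 0 or listed at 0.

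**Figure D1:**
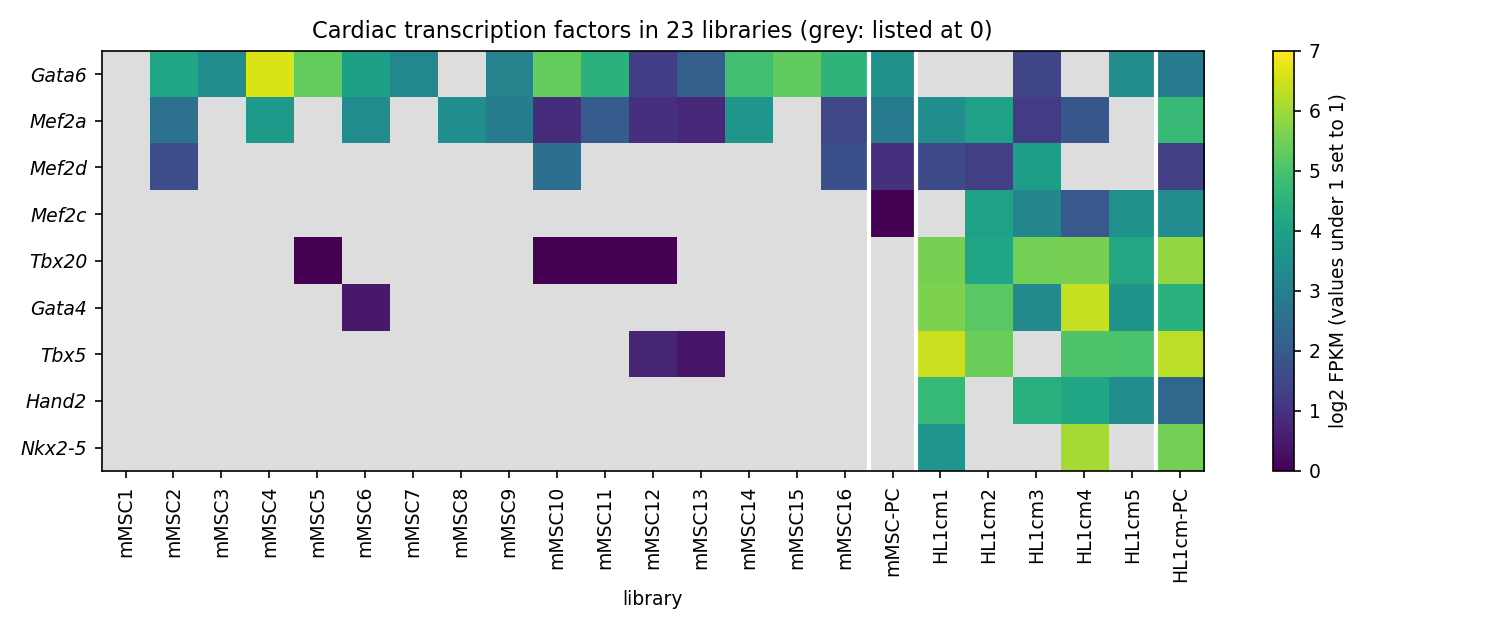
Level of the 9 factors (rows) in the 23 libraries (columns), as log2 FPKM with values under 1 set to 1, and grey where the gene was listed at 0. Gata6 fills the mMSC columns, being above 0 in 14 of 16 cells, while Tbx20 and Gata4 are at high values in all 5 HL1cm.

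Most of the factors belonged to HL1cm, and Gata6 went the other way. With values under 1 FPKM set to 1, the mean log2 level was higher in HL1cm by at least 1 for 6 of the 9 factors (Nkx2-5, Gata4, Tbx5, Tbx20, Mef2c and Hand2), where 18.3% of the 14369 genes above 0 in any library were past this limit in this direction. It was higher in mMSCs by at least 1 for Gata6 alone, where 17.7% of genes were. The median difference (HL1cm minus mMSC) was 2.55 for the 9 factors and -0.03 for all these genes. Mef2d was next to the limit, with a difference of 0.995, and Mef2a had 0.49. With values under 10 FPKM set to 10, only Gata4, Tbx5 and Tbx20 stayed past the limit in HL1cm, and no factor did in mMSCs. The sources name no separate cultures within a cell type. Each type therefore counts as a single sample without a test, and the spread given is that between cells.

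Promoter sequence is shown for 3 factors that stand for the patterns found: Hand2, listed at 0 in every mMSC library, Tbx20, with the lowest SD of log2 level over all 5 HL1cm, and Mef2a, present in both cell types. Each is the 250 bases before the annotated start, read 5′ to 3′ along the gene's strand (RefSeq, GRCm38.p6, which is the mm10 build). They lie at chr8:57320733-57320982 on the plus strand (Hand2), chr9:24774304-24774553 on the minus strand (Tbx20) and chr7:67372859-67373108 on the minus strand (Mef2a). Capitals mark matches to the motifs searched.
Hand2: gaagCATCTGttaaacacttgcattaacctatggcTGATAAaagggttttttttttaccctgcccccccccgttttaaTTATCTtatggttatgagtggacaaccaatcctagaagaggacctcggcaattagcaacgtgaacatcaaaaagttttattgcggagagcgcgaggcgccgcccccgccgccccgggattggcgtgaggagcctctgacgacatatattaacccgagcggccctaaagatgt
Tbx20: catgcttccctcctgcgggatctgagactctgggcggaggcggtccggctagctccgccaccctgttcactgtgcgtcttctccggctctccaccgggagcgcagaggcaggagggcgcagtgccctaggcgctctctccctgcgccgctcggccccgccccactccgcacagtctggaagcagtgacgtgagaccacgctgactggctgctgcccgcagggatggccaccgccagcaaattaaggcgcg
Mef2a: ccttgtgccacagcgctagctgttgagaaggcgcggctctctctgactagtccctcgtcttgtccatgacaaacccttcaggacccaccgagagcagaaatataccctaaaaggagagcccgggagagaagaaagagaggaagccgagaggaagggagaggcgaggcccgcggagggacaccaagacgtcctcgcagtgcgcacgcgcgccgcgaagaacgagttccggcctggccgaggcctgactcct
Both strands were searched for the GATA letters AGATAA and TGATAA, the NKX2-5 letters TNAAGTG, the T-box letters AGGTGTG, the HAND E-box letters CATCTG, the MEF2 consensus and the CArG box. The Hand2 window held 2 GATA matches, 215 and 172 bases before the start, and 1 E-box match 246 bases before it. The Tbx20 and Mef2a windows held none of these letters. Of all 32851 windows of this length, 16.6% held a GATA match, 10.1% an NKX2-5 match, 5.1% a T-box match, 14.4% an E-box match, 2.9% a MEF2 match and 1.5% a CArG match. The table used held windows for 6 of the 9 factors. Besides Hand2, only Mef2c had a motif match, with 1 T-box match in 1 of its 3 windows and 1 E-box match in another. A match describes letters and is not a measured binding site.

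Tbx20 is a T-box factor of the growing chambers of the heart (chromosome 9, bases 24718138 to 24774303 of mm10). Of the 9 factors it had the lowest SD of log2 level over all 5 HL1cm. It was at 47.5 FPKM in HL1cm1, 17.7 in HL1cm2, 46.3 in HL1cm3, 46.9 in HL1cm4 and 18.8 in HL1cm5, and at 58.5 FPKM in HL1cm-PC. The SD between the 5 cells was 0.75 on the log2 scale, and so few cells cannot show whether Tbx20 has separate levels. Over cells above 0 alone, the SD was lower for Hand2 (0.54) and Tbx5 (0.66), each above 0 in 4 HL1cm. In mMSCs Tbx20 was at 0.379 FPKM in mMSC5, 0.774 in mMSC10, 0.325 in mMSC11 and 0.393 in mMSC12, and listed at 0 in the other 12 and in mMSC-PC. By its longest RefSeq-linked transcript of 9091 bases, those 4 values were 0.823 to 1.88 times the low-end value of their library, so they rest on very few fragments. Every HL1cm lay above every mMSC.

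Gata4, the GATA factor that works with Nkx2-5 and Tbx5 in early heart (chromosome 14, bases 63198922 to 63271692), was the other factor whose groups did not overlap. It was at 49.2 FPKM in HL1cm1, 36.9 in HL1cm2, 9.79 in HL1cm3, 83.6 in HL1cm4 and 12.4 in HL1cm5, with 22.2 FPKM in HL1cm-PC. HL1cm3 and HL1cm5 were the low cells, and the highest cell exceeded the lowest by 8.53-fold. In mMSCs it was above 0 only in mMSC6, at 1.40 FPKM, and it was listed at 0 in mMSC-PC. Over all 14369 genes, 1.55% had every HL1cm above every mMSC, and Gata4 and Tbx20 were the 2 of the 9 factors that did. The reverse, every mMSC above every HL1cm, held for none of the 9 factors and for 1.87% of genes.

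Tbx5, the T-box factor of heart and forelimb (chromosome 5, bases 119832668 to 119885219), reached the highest level of any of these factors in HL1cm. It was at 86.7 FPKM in HL1cm1, 43.1 in HL1cm2, 33.8 in HL1cm4 and 32.3 in HL1cm5, but listed at 0 in HL1cm3. HL1cm-PC had 79.0 FPKM, above 4 of the 5 cells. Among mMSCs it was at 1.64 FPKM in mMSC12 and 1.35 in mMSC13, which were 1.73 and 1.61 times the low-end value there. The 14 other mMSCs and mMSC-PC were listed at 0, so the groups overlapped only through HL1cm3.

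Hand2, a factor needed for the right ventricle (chromosome 8, bases 57320983 to 57324633), was at 25.7 FPKM in HL1cm1, 21.6 in HL1cm3, 17.5 in HL1cm4 and 10.8 in HL1cm5. HL1cm2 was the cell in which it was listed at 0. HL1cm-PC had 5.02 FPKM, or 0.331 of the mean of the 5 cells. Hand2 was listed at 0 in all 16 mMSCs (0%, exact 95% confidence interval 0% to 20.6%, counting error only) and in mMSC-PC. Its exons share 461 bases with those of Hand2os1 on the opposite strand. The library kit does not mark strand, so reads from the shared bases cannot be assigned to either gene.

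Nkx2-5, the homeodomain factor that marks heart progenitors (chromosome 17, bases 26838664 to 26845009), was unevenly found in the cardiomyocytes. It was at 66.8 FPKM in HL1cm4 and 12.9 in HL1cm1, and listed at 0 in HL1cm2, HL1cm3 and HL1cm5. HL1cm-PC had 46.7 FPKM, which was 2.93 times the mean of the single cells. Nkx2-5 was listed at 0 in all 16 mMSCs and in mMSC-PC. Its difference of 1.95 in mean log2 level fell to 0.92 without HL1cm4, below the limit of 1.

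Of the MEF2 genes, Mef2c (chromosome 13, bases 83504034 to 83667080) was confined to HL1cm among the single cells. It was at 16 FPKM in HL1cm2, 9.34 in HL1cm3, 3.89 in HL1cm4 and 11.8 in HL1cm5, and was listed at 0 in HL1cm1 and in all 16 mMSCs. HL1cm-PC had 10.3 FPKM and mMSC-PC had 0.425 FPKM, which was 0.371 of the low-end value of that library. The study's gene list counts Mef2c as chondrogenic.

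Mef2a (chromosome 7, bases 67231163 to 67372858) was instead shared by both cell types. It was at 10.7 FPKM in HL1cm1, 16 in HL1cm2, 2.37 in HL1cm3 and 3.73 in HL1cm4, and listed at 0 in HL1cm5. In mMSCs it was above 0 in 11 of 16 cells, with a lowest value of 0, a median of 2.38 and a highest of 13.8 FPKM, so the ranges overlapped over most of their length. The difference in mean log2 level was 0.49, and it lay between 0.02 (without HL1cm2) and 1.02 (without HL1cm5) when each HL1cm was left out in turn. Its exons share 302 bases with those of Lysmd4 on the opposite strand.

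Mef2d (chromosome 3, bases 88142372 to 88172086) was found in 3 of 5 HL1cm and 3 of 16 mMSCs. It was at 3.05 FPKM in HL1cm1, 2.50 in HL1cm2 and 15 in HL1cm3, and listed at 0 in HL1cm4 and HL1cm5. Among mMSCs it was at 3.19 FPKM in mMSC2, 5.88 in mMSC10 and 3.30 in mMSC16, and listed at 0 in the other 13. The population controls were close, with 2.49 FPKM in HL1cm-PC and 1.92 in mMSC-PC. Without HL1cm3, the cell with most Mef2d, the difference in mean log2 level was 0.36. Its exons share 531 bases with those of 1700113A16Rik on the opposite strand.

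**Figure D2:**
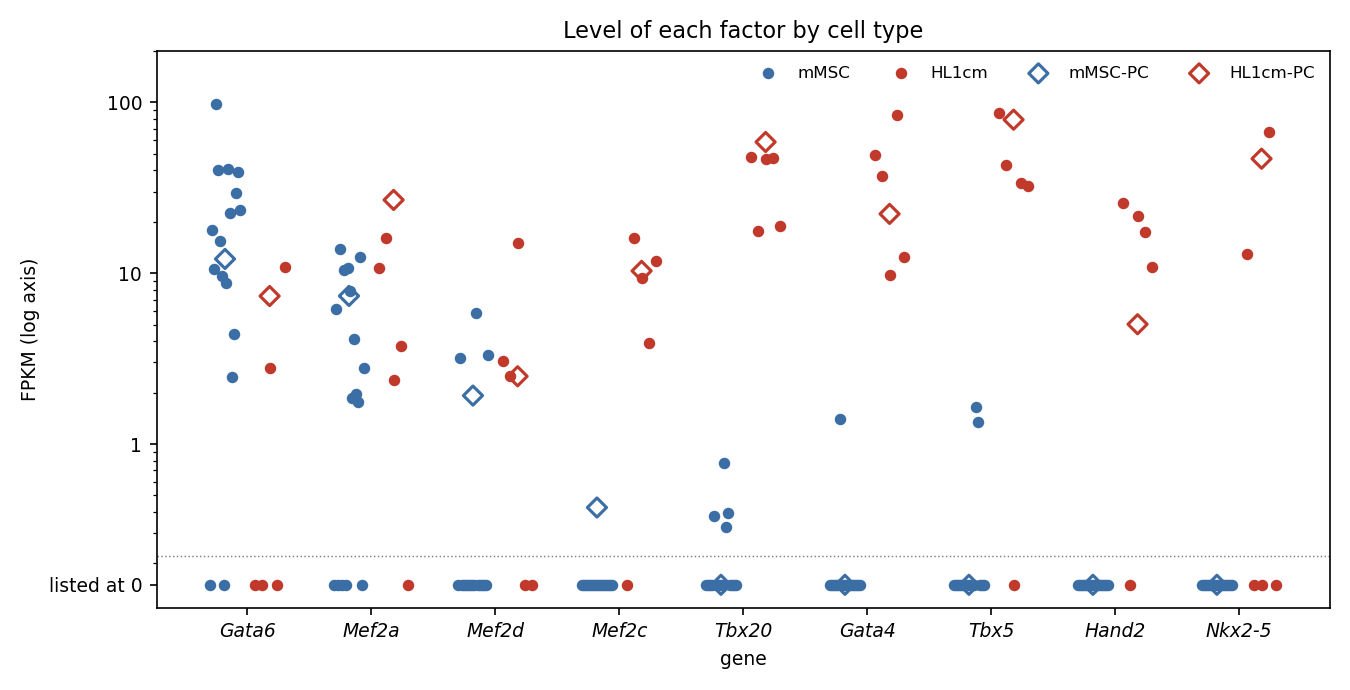
FPKM of each factor on a log axis, with single mMSCs in blue, single HL1cm in red and the population controls as open diamonds in the colour of their cell type, and genes listed at 0 drawn on the bottom line. Tbx20 and Gata4 are the factors for which the lowest HL1cm (17.7 and 9.79 FPKM) lies above the highest mMSC (0.774 and 1.40 FPKM).

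Gata6 (chromosome 18, bases 11052064 to 11085635 of mm10) was the only factor higher in single mMSCs by the limit of 1. It did not pass this limit between the population controls or with values under 10 FPKM set to 10. Its exons share 93 bases with those of 1010001N08Rik on the opposite strand. It ranged from 0 to 97.8 FPKM over the 16 cells with a median of 16.6, and it was the highest of the 9 factors in 14 of the 16 mMSCs and in mMSC-PC, which had 12.1 FPKM. It was above 0 in 87.5% of mMSCs (exact 95% confidence interval 61.7% to 98.4%) and at 10 FPKM or more in 10 cells. The top cell was mMSC4 at 97.8 FPKM, followed by mMSC10 at 40.6, mMSC5 at 40.3 and mMSC15 at 39.0. Among cells above 0, the lowest were mMSC12 at 2.47 FPKM and mMSC13 at 4.38. These 14 cells spanned a 39.5-fold range, and the SD of log2 values was 1.40 over the 14 cells and 1.92 over all 16.

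The 2 mMSCs with Gata6 listed at 0 were mMSC1 and mMSC8. By its transcript of 3234 bases, the low-end value for Gata6 was 2.19 FPKM in mMSC1 and 1.95 in mMSC8. In mMSC9, the shallowest library by this measure, Gata6 was at 8.78 FPKM, which was 2.28 times the low-end value. Over the 16 cells, log2 Gata6 and the log2 low-end value had Pearson's r = -0.29 and Spearman's rho = -0.28. Without mMSC9 and mMSC15, the 2 cells farthest from the median in low-end value, r was -0.64. Without mMSC1 and mMSC8 as well, a choice made after seeing the data, r was -0.09 and rho was -0.06 over 12 cells. Those 2 are the next shallowest libraries and also the cells with Gata6 listed at 0. Leaving them out selects cells by Gata6 itself, so the change in r cannot show how far the relation holds. The 16 mMSCs share a capture device, and the part of depth in the spread of Gata6 was not tested.

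HL1cm held less Gata6. It was at 2.77 FPKM in HL1cm3 and 10.9 in HL1cm5, listed at 0 in HL1cm1, HL1cm2 and HL1cm4, and at 7.34 FPKM in HL1cm-PC. The mean log2 level was lower by 2.63 in HL1cm than in mMSCs, while the ranges of both groups overlapped. With values under 10 FPKM set to 10 the difference (HL1cm minus mMSC) was -0.90, short of the limit of 1. When each HL1cm was left out in turn, the difference (HL1cm minus mMSC) lay between -3.25 and -2.39. Between the population controls, where neither library is at 0, it was -0.72, and no factor was higher in mMSC-PC by 1 or more, where 16.4% of genes were. In the other direction 7 factors were higher in HL1cm-PC, where 31.3% of genes were, and these were Mef2a and the 6 factors named for the single cells.

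Gata4 and Gata6 are close relatives, and their levels in single HL1cm can be set side by side. The 2 HL1cm with Gata6 above 0, HL1cm3 and HL1cm5, were also the 2 with the least Gata4, at 9.79 and 12.4 FPKM. The 3 cells with Gata6 listed at 0 had 36.9 to 83.6 FPKM of Gata4. In the single mMSC with Gata4 above 0, mMSC6, Gata6 was at 15.4 FPKM. HL1cm3 and HL1cm5 also had the lowest summed level of the 9 factors, at 107 and 97.0 FPKM. Their sums of the 10 cardiomyocyte markers, 30942 and 35949 FPKM, were likewise the lowest of the 5 HL1cm. Tbx20 in HL1cm3, at 46.3 FPKM, was not low. Whether Gata4 and Gata6 are related in these cells was not tested, and with 5 cells no correlation is given.

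**Figure D3:**
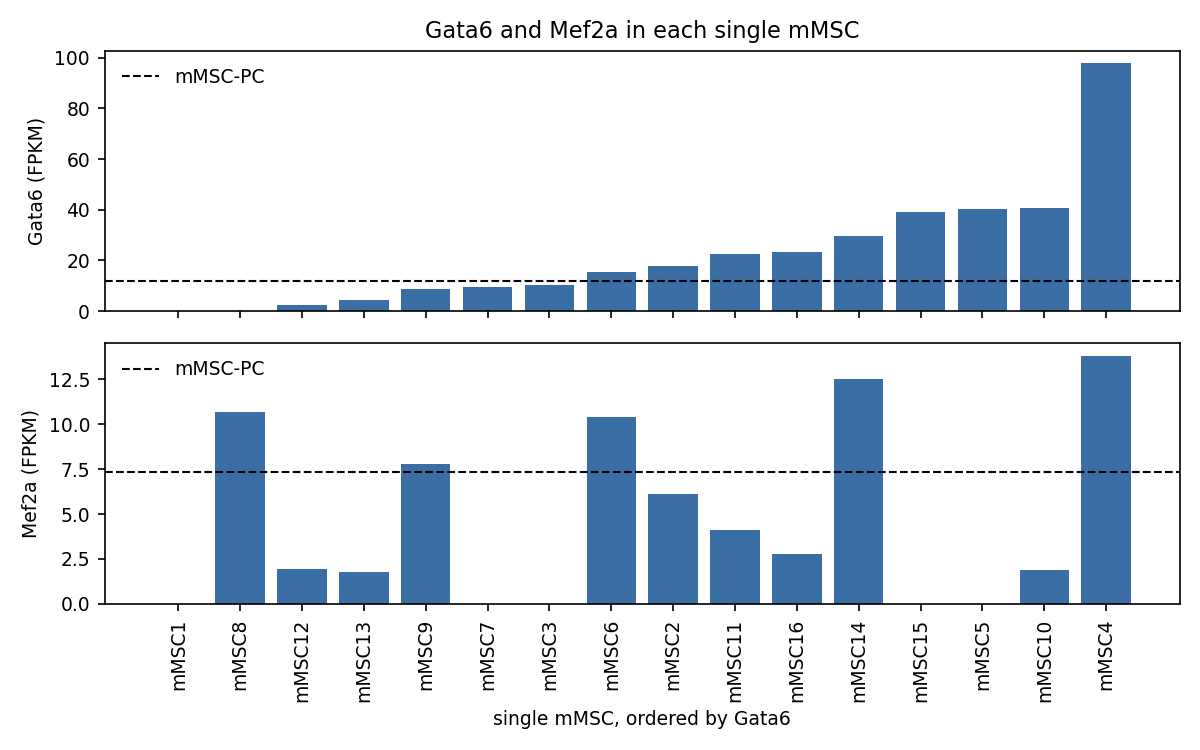
FPKM of Gata6 (top) and Mef2a (bottom) in each of the 16 single mMSCs, ordered by Gata6, with the level of mMSC-PC as a dashed line. Gata6 rises from 0 in mMSC1 and mMSC8 to 97.8 FPKM in mMSC4, and Mef2a, above 0 in 11 cells, does not follow this order.

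Within a cell, HL1cm held 6 or 7 of the 9 factors above 0 and mMSCs held 0 to 4, with medians of 7 and 2. Of all 23284 genes, 6788 to 7226 were above 0 in a single HL1cm and 5198 to 7641 in a single mMSC. No HL1cm held all 9, while HL1cm-PC did. The factor at the highest level in a HL1cm was Tbx5 in 3 cells, Gata4 in 1 and Tbx20 in 1. The summed level of the 9 factors was 97.0 to 256 FPKM in HL1cm and 0 to 112 FPKM in mMSCs, and the ranges overlapped through mMSC4, whose sum of 112 FPKM was Gata6 at 97.8 and Mef2a at 13.8. The cell mMSC1 had none of the 9 factors above 0, and mMSC8 had only Mef2a, at 10.7 FPKM. Gata6 and Mef2a were both above 0 in 10 of the 16 mMSCs. Their log2 levels had r = 0.14 and rho = 0.12 over the 16 cells, and r was -0.13 without mMSC4 and mMSC14.

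Single mMSCs and HL1cm were captured in the same device, so traces of heart factors in mMSCs are given beside the heart muscle genes in those cells. The 6 mMSCs with Gata4, Tbx5 or Tbx20 above 0 had a summed level of the 10 cardiomyocyte markers of 0 to 40.8 FPKM with a median of 30.2. The 10 mMSCs without them had 0 to 65.4 FPKM with a median of 28.6. Myl7, the atrial myosin light chain and the most abundant of these markers in HL1cm (20292 to 46701 FPKM), was above 0 in 2 of the 6 and in 3 of the 10. Of the 10 markers, 8 were above 0 in some mMSC, among them Tnnt2 in 6 cells, with 40.8 FPKM at most, and Tnnc1 in 4, with 28.3 at most. Actn2, above 0 in all 5 HL1cm, was listed at 0 in all mMSCs, and so was Nppa, which was above 0 in only 2 HL1cm. In mMSC-PC the summed level of the 10 markers was 2.8 FPKM, with only Actc1 above 0. The part of carry-over between chambers in these traces was not tested.

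Relatives of the factors were described from 6 lists. The background shares beside them are of the 14369 genes above 0 in some library, while the lists also hold genes listed at 0 everywhere. In the GATA and FOG list, 5 of the 6 genes were above 0 in some library. None of them passed a difference of 1 in either direction, where 18.3% of the background genes were higher in HL1cm and 17.7% in mMSCs. Gata5, a GATA factor of heart and gut, was at 25.0 FPKM in HL1cm-PC and 1.12 in mMSC-PC, and was above 0 in 1 HL1cm and 6 mMSCs. Zfpm2, the FOG cofactor of Gata4, was above 0 in 4 HL1cm and 8 mMSCs, with 34.5 and 18 FPKM at most. Gata1 was listed at 0 in every library.

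The T-box list held 7 genes, 4 of them above 0 in some library. Of these 4, 2 were higher in mMSCs and none in HL1cm, against 17.7% and 18.3% of the background genes. Tbx3, known from the conduction system of the heart and from limb and mammary tissue, was above 0 in 15 of 16 mMSCs with a median of 5.55 and a highest value of 30.0 FPKM. It was above 0 in 1 HL1cm, at 1.76 FPKM, and the difference in mean log2 level was -2.28. Tbx15, a factor of the limb skeleton, was found in 10 mMSCs, reached 31.4 FPKM and was listed at 0 in all HL1cm libraries. Tbx18, known from the outer layer of the heart, did not pass the limit, with 7 mMSCs and 4 HL1cm above 0 and levels of 4.86 and 5.81 FPKM in the population controls.

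**Figure D4:**
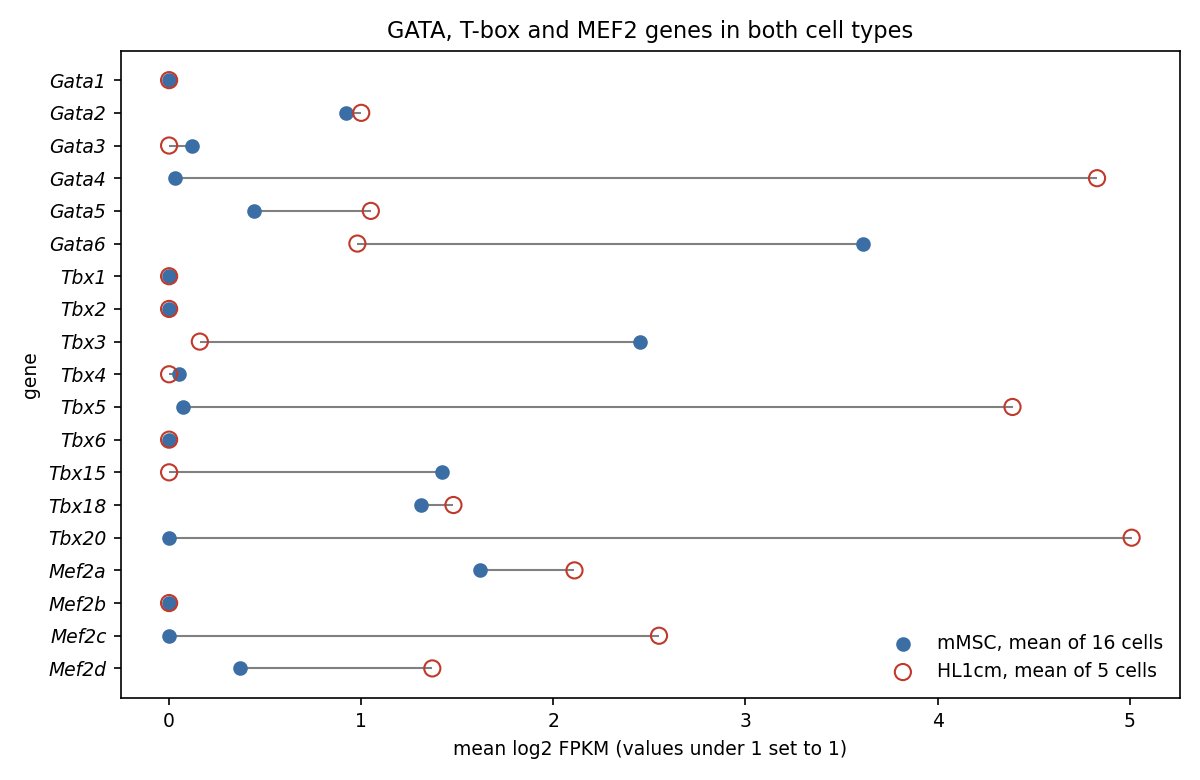
Mean log2 FPKM (values under 1 set to 1) of GATA, T-box and MEF2 genes in 16 mMSCs (filled) and 5 HL1cm (open), joined by a line for each gene. Gata6, Tbx3 and Tbx15 are farther right in mMSCs (differences of -2.63, -2.28 and -1.42), while Gata4, Tbx5, Tbx20 and Mef2c are farther right in HL1cm.

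Of 11 partners of MEF2 and of the serum response factor, 9 were above 0 in some library. Of these 9, 3 were higher in HL1cm and none in mMSCs, beside 18.3% and 17.7% of the background genes. Myocd, the coactivator of serum response factor in heart and smooth muscle, was at 57.2 to 151 FPKM in all 5 HL1cm and was found in 3 mMSCs, the highest at 10.1 FPKM. Srf itself differed by 1.31 and Mapk14, a kinase that phosphorylates MEF2 proteins, by 1.23, although the population controls went the other way for Mapk14, with 1.53 FPKM in HL1cm-PC and 5.25 in mMSC-PC. Of 26 other heart factors, 18 were above 0 in some library. Of these 18, 7 were higher in HL1cm and 2 in mMSCs, again beside 18.3% and 17.7% of the background genes. Ankrd1, a nuclear protein of strained heart muscle, was at 111 to 3498 FPKM in HL1cm and 4.30 FPKM at most in mMSCs. Smyd1, a methyltransferase of striated muscle, was at 2.94 to 23.2 FPKM in HL1cm and listed at 0 in all mMSCs. Nfatc1, a factor controlled by calcineurin, was lower in HL1cm, with a median of 2.04 FPKM against 21.4 in mMSCs.

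Of 25 known target genes of these factors, 23 were above 0 in some library, and the median difference over all 25 was 4.01. Of these 23, 17 were higher in HL1cm and none in mMSCs, against 18.3% and 17.7% of the background genes, whose median was -0.03. Tnni3, the heart form of troponin I, was at 1104 to 4450 FPKM in HL1cm, and Actc1, cardiac actin, at 823 to 3413 FPKM. Of 5 smooth muscle genes, 4 were above 0 in some library. Of these 4, 2 were higher in HL1cm (Tagln and Acta2) and 1 in mMSCs (Cnn1), beside the same 18.3% and 17.7%. Over the 16 mMSCs, log2 Gata6 had r = 0.34 and rho = 0.33 with Tagln, r = 0.10 and rho = 0.25 with Cnn1, r = -0.17 and rho = -0.04 with Acta2, and r = -0.18 and rho = -0.05 with Smtn. With the 2 cells farthest from each gene's median left out, r was 0.35 for Tagln, 0.52 for Cnn1, 0.06 for Acta2 and -0.04 for Smtn. In sparse values of this kind these are descriptions of 16 cells.

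The genes whose log2 levels over the 16 mMSCs were most like Gata6, among 6776 genes that reached 1 FPKM in 8 or more of them, were Zfp260 (r = 0.78), Upf3b (0.78) and Rhoq (0.77). Zfp260 is a zinc finger protein, Upf3b acts in nonsense-mediated decay and Rhoq is a small GTPase. All 3 stayed within the first 10 genes by Spearman's rho and without mMSC9 and mMSC15. Nearest to Mef2a were Nhp2l1 (r = 0.85), BC052688 (0.77) and Mocos (0.77). The highest r among 6776 genes over 16 cells are high by selection, so they order the genes and carry no test.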

How the data were processed

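The deposited table holds FPKM values for 23284 genes in 23 libraries. By the study's methods and the submitters' processing notes, the authors captured cells on a Fluidigm C1 chip for cells of 17 to 25 micrometres, sequenced paired reads of 75 bases, aligned them to mm10 with TopHat2 2.0.12 and estimated FPKM with Cufflinks 2.2.1. Cufflinks divides reads between isoforms and gene copies, so low values and relatives that share sequence are uncertain. No count model was fitted to FPKM.

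Values were used as deposited. Levels were compared as means of log2 FPKM with values under 1 set to 1, a scale that understates differences of low genes, and a difference of 1 was the limit. Genes above 0 in any library (14369) gave the background. Without named cultures, differences between cell types were left untested. Intervals for shares of cells are Clopper-Pearson at 95%, for counting error only. The low-end value used 7512 genes with a single RefSeq-linked transcript in GENCODE M21. It is approximate, since the authors used another annotation and an effective length. Coordinates are from GENCODE M21.

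All 9 factors are named. From each of the 6 related lists at most 5 genes with the largest absolute difference were eligible, with Gata1, Tnnc1, Actn2, Nppa, the other cell type markers, Lysmd4, 1700113A16Rik, Hand2os1, 1010001N08Rik and Canx named outside this rule, after their values or annotation were seen. Nearest genes were the 3 of highest Pearson's r, over the 16 mMSCs for factors at 1 FPKM or more in at least 8 of them, otherwise over the 21 single cells for those at that level in at least 3 HL1cm. The factors, lists and rules were chosen with earlier results of these data known. Ranking and differences were tested on simulated data. Scripts ran in Python 3.11.15 (pandas 2.3.3, numpy 2.4.6, scipy 1.17.1) and figures were drawn with matplotlib 3.10.9.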

Additional observations from a re-analysis of the deposited data

Results flagged for a closer look

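In the group of 5 HL1cm, the lowest cell stood apart from the others for 2 of the 9 factors by Dixon's ratio, the gap to the nearest cell over the range of log2 values, for which the 95% critical value is 0.71. For Tbx5 the ratio was 0.779, with HL1cm3 listed at 0. For Hand2 it was 0.734, with HL1cm2 listed at 0. In both cases the low cell was a 0 placed at 1 FPKM, so the ratio depends on that setting, and a 0 need not mean absence. Chance alone marks about 1 in 20 groups, and both ends of each factor were examined. HL1cm3 also had the most Mef2d (15 FPKM).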

How the results depend on the processing

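No paired analysis was possible because the comparisons of the cell types come from no test and the numbers of mMSCs and HL1cm only name cells. Of 226 recomputed values, 28 moved by more than the spread between cells or, for counts and SDs, by over 1.5 times. None of the 99 that are differences between cell types changed sign. With values under 10 FPKM set to 10, 3 factors were higher in HL1cm (Gata4, Tbx5 and Tbx20) and 0 in mMSCs, since Gata6 (-0.90) lost the limit, and 918 and 882 of all genes were past the limit, against 2623 and 2540 in the reported setting. With log2(FPKM + 0.1) the numbers of genes were 3990 and 3834, and the factor counts 7 and 1. With a limit of 2 they were 1106 and 1039, and 5 and 1, where Nkx2-5 (1.95) fell short. The factor counts were also 7 and 1 with log2(FPKM + 1), log2 of the mean FPKM and rescaling by the median ratio. Mef2d passed the limit of 1 with log2(FPKM + 1) (1.13), log2(FPKM + 0.1) (2.38) and the median ratio (1.07). Rescaled to the same sum, 2248 genes were higher in HL1cm and 3104 in mMSCs, and by the median ratio 3032 and 2182. The direction with more genes thus turned with the scaling. The top entry of a library held from 3.02% of its FPKM sum (mMSC11) to 72.3% (Mir3470a in HL1cm5). It held 48.2% in mMSC1, 62.5% in mMSC8 and 52.5% in mMSC16. At 10 FPKM or more the median mMSC had 1 factor. Leaving out each HL1cm in turn gave 6 to 8 factors higher in HL1cm, and 1 in mMSCs each time. The count was 8 without HL1cm5, where Mef2a (1.02) and Mef2d (1.34) passed the limit, Mef2d also passed it without HL1cm2 (1.01) or HL1cm4 (1.34), and Nkx2-5 lost it without HL1cm4 (0.92). Without mMSC9 and mMSC15 the factor counts were again 6 and 1, the numbers of genes were 2548 and 2654, the median number of factors per mMSC was 2.5, and Gata6 was above 0 in 12 of the other 14 mMSCs.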

Other observations

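For 6 factors, the nearest genes over the 21 single cells had r of 0.83 to 1.00, and 5 HL1cm are too few for a correlation of their own. Nearest to Tbx20 were AI662270, Ush1c and Trdn, a protein of the calcium release complex of heart muscle. For Gata4 they were Xlr, Slc8a1, the cardiac sodium-calcium exchanger, and Rbm24, a splicing factor of heart muscle. For Tbx5 they were Kcnj11, Myl2 and Apobec2, for Mef2c Mybpc3, Rnf207 and Klhl30, and for Hand2 Ntn1, Batf3 and Car2. For Mef2d they were Cdnf, Gnb3 and Fgd1. These 18 genes were chosen by r over both cell types, so a high r comes with that choice. To be ranked, a gene needed 1 FPKM or more in only 3 of the 21 cells, which the 5 HL1cm alone can supply. Of the 18 genes, 13 were listed at 0 in every single mMSC. Their r rests on the step between cell types and on the 5 HL1cm, and cannot show a shared course within mMSCs. Co-expression within a cell type was not tested for these genes.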
